A study of Mus musculus with 24 samples.

Results

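The voltage-gated sodium and calcium channel genes of the mouse cortex are described here: the genes whose symbol is Scn, a number and the letter a or b, or Cacn, letters, a number and an optional letter. The pattern matched 35 of the 43346 genes in the count table, and the 34 with at least 10 raw reads in at least 6 of the 24 libraries were taken. They comprise 8 pore-forming sodium channel genes, 4 sodium channel beta subunits, 10 pore-forming calcium channel genes, 4 calcium channel beta subunits and 8 gamma subunits. The gene left out was Scn4a, the sodium channel of skeletal muscle, which had 0 to 13 reads and reached 10 in 1 library. Just inside the limit were Cacng1 with 10 reads in 18 libraries, Scn11a in 20 and Scn10a in 23. The pattern does not match the symbol Scn2a1, under which the table lists the sodium channel gene Scn2a, nor the alpha2delta genes, so these are described below only as companions.

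The RNA came from mouse cortex and made 24 libraries, whose titles carry different numbers without stating that each is a separate animal. They fall into 4 groups of 6: mice with the genotype label Abca7 given LPS, mice labelled Abca7 with no stimulus, control mice given LPS, and control mice with no stimulus. LPS is lipopolysaccharide, the bacterial cell wall component that triggers innate immune signalling, and the series text says that it was injected and that the Abca7 mice were heterozygous; the labels and the series text name neither dose nor route, interval or strain. The mice were 54 to 56 days old in both LPS groups, 55 to 58 days in unstimulated mice labelled Abca7 and 55 to 57 days in unstimulated controls. The ABCA7 protein moves lipids across membranes.

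Voltage-gated sodium channels open on depolarisation and carry the rising phase of the action potential. A single large alpha protein forms the pore, and beta subunits, which are also cell adhesion molecules, adjust its gating and position. Voltage-gated calcium channels turn the action potential into calcium entry, which drives transmitter release, dendritic signalling and gene expression; their pore proteins are classed by current as L-, P/Q-, N-, R- and T-type, and cytoplasmic beta subunits bring most of them to the membrane. Most neuronal gamma subunits are known less as calcium channel subunits than as TARPs, the transmembrane proteins that traffic and gate AMPA-type glutamate receptors.

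Libraries held 48149131 to 75741388 counted reads. Levels are given as CPM, the usual depth-scaled counts, after TMM scaling of library sizes, and between genes as RPKM, CPM per kilobase of the gene length that the table lists. Abca7 itself had a median of 30.0 CPM in mice labelled Abca7 and 25.6 CPM in controls under LPS, and 31.3 CPM in mice labelled Abca7 and 28.0 CPM in controls without LPS, so its RNA was not lower in the labelled mice (log2 difference 0.26 ± 0.07, adjusted p = 0.267, and 0.17 ± 0.07, adjusted p = 0.606, edgeR; values after ± are standard errors for log2 values). In these bulk libraries, fewer cells of a type and less RNA per cell cannot be told apart. None of 9 pan-neuronal markers passed the test with LPS in either genotype, and their summed level was 6186 to 6535 CPM in mice labelled Abca7 with LPS, 6143 to 6604 CPM without LPS, 6275 to 6773 CPM in controls with LPS and 6328 to 6961 CPM in controls without. Of 8 markers of each type, 7 microglial ones fell and 1 rose with LPS in mice labelled Abca7, 7 fell in controls, and 6 endothelial ones fell while 1 rose in both genotypes.

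The channel genes spanned more than 3 orders of magnitude. In unstimulated controls the sodium channel beta subunits Scn2b (63.3 ± 2.0 RPKM, SD, n = 6) and Scn4b (60.6 RPKM), the calcium channel beta subunit Cacnb3 (58.4 RPKM) and the TARP Cacng7 (57.8 RPKM) were among the highest per length, and in that order each overlapped the next of these 4. Scn8a, the main pore of mature axon initial segments and nodes, was the highest pore gene among the 34, at 36.4 ± 2.2 RPKM. The pores Scn1a, Cacna1a, Cacna1e, Cacna1b and Cacna1i lay between 18.6 and 16.2 RPKM, each overlapping the next. Cacnb2 lay much lower, at 3.96 ± 0.17 RPKM. At the bottom were Scn10a and Scn11a, channels of peripheral sensory neurons, at 0.0682 ± 0.015 and 0.0520 ± 0.025 RPKM; their counts were low enough that only large changes could be seen. Averaged over all libraries, 26 genes reached 1 RPKM and 8 did not. Scn2a1, the companion outside the pattern, had 40.2 ± 3.1 RPKM.

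**Figure D1:**
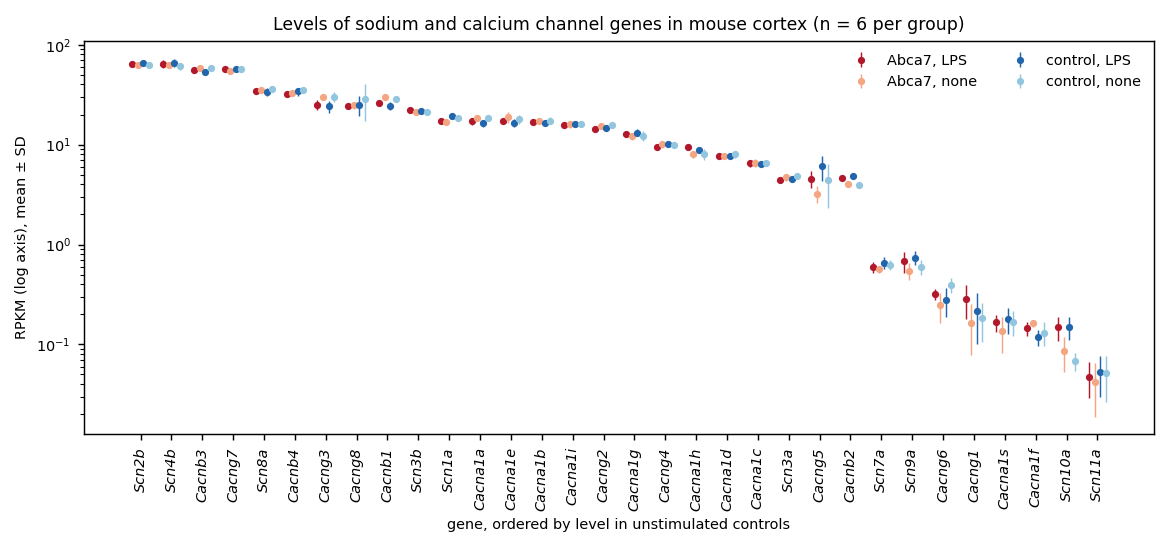
Level of each of 32 channel genes in RPKM on a log axis, as mean ± SD of 6 libraries in each of the 4 groups, ordered by the level in unstimulated controls. Scn2b, Scn4b, Cacnb3 and Cacng7 lie highest among the genes plotted, near 58 to 63 RPKM, and the 4 groups lie close together for most genes.

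Summed by family, the pore genes of the sodium channels made up 58.7 ± 2.1 RPKM in mice labelled Abca7 with LPS, 59.3 ± 2.9 RPKM in mice labelled Abca7 without LPS, 60.6 ± 3.2 RPKM in controls with LPS and 62.1 ± 2.5 RPKM in controls without. The calcium channel beta family summed to 119 ± 4.9 RPKM with LPS and 126 ± 3.1 RPKM without in mice labelled Abca7, and to 117 ± 6.7 RPKM with LPS and 126 ± 3.3 RPKM without in controls. The ranges of these sums overlapped between LPS and no stimulus in both genotypes.

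With LPS, a few channel genes moved, some up and some down, mostly by small amounts. Scn10a, a gene with few reads, moved further (log2 fold change 0.79 in mice labelled Abca7 and 1.12 in controls). The test was edgeR's quasi-likelihood F test over 21891 genes with Benjamini-Hochberg adjustment, and a gene was called at an adjusted p under 0.05. In mice labelled Abca7, 5 of 34 channel genes were called (14.7%, against 11.8% of all genes tested): Cacnb2, Cacna1h and Scn10a rose, and Cacnb1 and Cacng3 fell. In controls, 7 of 34 were called (20.6%, against 17.3% of all genes): 3 rose, among them Cacnb2 and Scn10a, and Cacnb1, Cacnb3, Cacng3 and Cacna1a fell. By direction, 3 rose and 2 fell in mice labelled Abca7 (6.65% and 5.18% of all genes), and 3 rose and 4 fell in controls (9.39% and 7.92% of all genes). These shares are close to those of all genes, and the median log2 fold change of the 34 was 0.02 and -0.01, against 0.01 for all genes in both comparisons. The comparisons share no libraries. A set of 4 genes, Cacnb2, Cacnb1, Cacng3 and Scn10a, was called in both, which is 80.0% of those called in mice labelled Abca7 and 57.1% of those called in controls. Over all genes tested these shares were 82.7% and 56.5%, so the overlap of the channel genes was near the background. The sign was the same in both for 31 of the 34 genes (91.2%), against 75.0% of all genes. No channel gene passed the test of a difference in LPS effect between the genotypes, so the genes called in 1 comparison alone are not shown to differ between them. With age as a factor, 6 channel genes were called in mice labelled Abca7 and 9 in controls, and the shares of all genes in that fit are not given here.

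**Figure D2:**
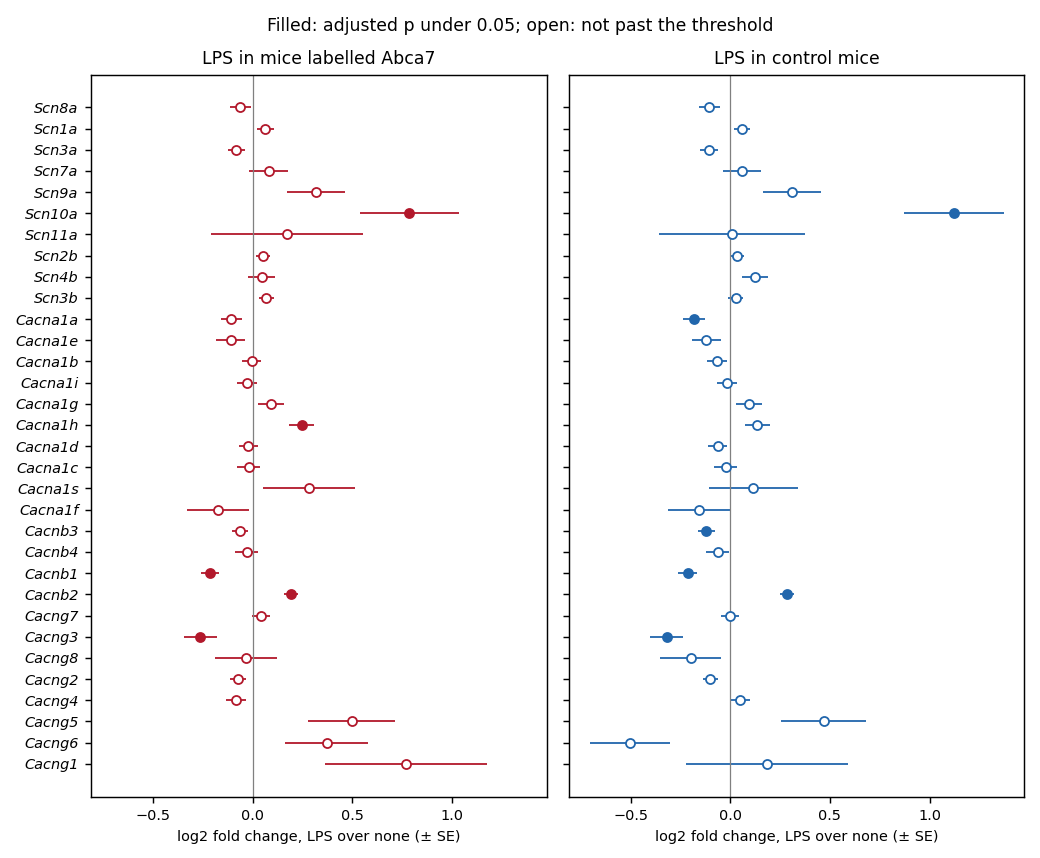
Log2 fold change with LPS over no stimulus, ± SE, of each of 32 channel genes, in mice labelled Abca7 on the left and in controls on the right, grouped by family; filled points have an adjusted p under 0.05. Most genes lie within 0.2 of 0, with 5 filled points on the left and 6 on the right, and the widest bars belong to genes with few reads.

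Calls among the calcium channel beta subunits went in opposite directions. These cytoplasmic proteins bind the pore protein and govern its delivery to the membrane and its inactivation. Of 4 genes, 2 were called in mice labelled Abca7 (50%, against 11.8% of all genes) and 3 in controls (75%, against 17.3%). Cacnb2 rose while Cacnb1 and, in controls, Cacnb3 fell. With 4 genes a single call moves these shares far, and the Cacnb3 call was lost in 15 of 20 alternatives.

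Cacnb2 (ENSMUSG00000057914, mm10 chromosome 2, 14603088 to 14987908) encodes the beta subunit best known from heart muscle. In mice labelled Abca7 it lay at 59.1, 61.1 and 62.1 CPM with LPS (lowest, median and highest of 6), against 49.2, 53.4 and 56.9 CPM without. In controls it lay at 62.2, 64.2 and 65.2 CPM with LPS, against 49.6, 52.6 and 55.4 CPM without. Every LPS library was above every unstimulated library of its genotype. Such separation upward was found in 3.49% of all genes in mice labelled Abca7 and 5.38% in controls. Of the 34 channel genes, 1 (Cacnb2) showed it in mice labelled Abca7 and 2 in controls, which is near those shares. The log2 fold change was 0.19 ± 0.04 in mice labelled Abca7 (adjusted p = 0.000219) and 0.28 ± 0.04 in controls (adjusted p = 5.21e-07, edgeR), or 1.14-fold and 1.22-fold. The call held in all 20 alternative analyses of each comparison. Cacnb2 made up 3.87% ± 0.15 of the summed RPKM of the beta family with LPS and 3.19% ± 0.19 without in mice labelled Abca7, and 4.13% ± 0.26 with LPS and 3.14% ± 0.12 without in controls (SD, n = 6). Exons of Cacnb2 overlap those of the antisense genes Gm10849, Gm13269 and Gm10848 in GENCODE M21, and no source used here names the strand setting of the counting, so a part of its reads could belong to them.

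Because Cacnb2 and Scn10a rose and Cacnb1 fell in both genotypes, the RefSeq promoters of these genes are shown, on GRCm38.p6, each with 250 bases before and 50 bases from the annotated start on, in the direction of transcription. Capitals mark matches on either strand to the GC box GGGCGG, the cAMP response element core TGACG, or the NF-kB motif. The upstream and downstream Cacnb2 promoters, at chr2:14604056-14604355 and chr2:14823842-14824141 on the plus strand, come first, then Scn10a at chr9:119718983-119719282 and the upstream and downstream Cacnb1 promoters at chr11:98022578-98022877 and chr11:98018323-98018622, all on the minus strand.
Cacnb2 upstream: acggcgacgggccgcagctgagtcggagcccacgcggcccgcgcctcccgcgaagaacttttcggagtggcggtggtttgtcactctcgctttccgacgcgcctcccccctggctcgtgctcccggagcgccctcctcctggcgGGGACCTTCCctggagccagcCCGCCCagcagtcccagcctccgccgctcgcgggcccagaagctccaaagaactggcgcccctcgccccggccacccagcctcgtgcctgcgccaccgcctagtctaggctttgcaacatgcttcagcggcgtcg
Cacnb2 downstream: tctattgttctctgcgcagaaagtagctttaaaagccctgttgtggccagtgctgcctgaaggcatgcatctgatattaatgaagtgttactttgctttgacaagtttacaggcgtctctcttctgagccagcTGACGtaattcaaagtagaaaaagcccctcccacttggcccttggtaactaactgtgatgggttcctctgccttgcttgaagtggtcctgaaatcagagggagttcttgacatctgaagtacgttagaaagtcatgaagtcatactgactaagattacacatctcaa
Scn10a: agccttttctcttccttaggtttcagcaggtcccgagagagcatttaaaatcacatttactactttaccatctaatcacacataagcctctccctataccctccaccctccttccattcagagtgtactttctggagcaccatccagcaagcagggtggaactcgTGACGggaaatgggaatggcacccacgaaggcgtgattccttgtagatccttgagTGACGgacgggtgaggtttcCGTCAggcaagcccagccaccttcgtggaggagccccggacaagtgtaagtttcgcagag
Cacnb1 upstream: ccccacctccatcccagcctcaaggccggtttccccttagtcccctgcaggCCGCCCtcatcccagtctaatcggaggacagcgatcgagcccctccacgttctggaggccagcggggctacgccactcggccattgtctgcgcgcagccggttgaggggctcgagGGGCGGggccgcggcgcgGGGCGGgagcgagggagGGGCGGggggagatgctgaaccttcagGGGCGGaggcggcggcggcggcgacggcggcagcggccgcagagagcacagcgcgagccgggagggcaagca
Cacnb1 downstream: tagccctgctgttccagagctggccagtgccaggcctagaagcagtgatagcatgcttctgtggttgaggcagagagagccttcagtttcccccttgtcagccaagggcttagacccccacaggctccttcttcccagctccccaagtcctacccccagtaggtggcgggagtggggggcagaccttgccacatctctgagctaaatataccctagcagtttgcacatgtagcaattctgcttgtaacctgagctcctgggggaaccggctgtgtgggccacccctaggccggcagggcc
The upstream Cacnb2 window held 1 GC box and 1 NF-kB match and was 71.7% G or C, while the downstream one held 1 TGACG and was 44.0% G or C. The Scn10a window held 3 TGACG and no GC box, the upstream Cacnb1 window held 5 GC boxes and was 73.7% G or C, and the downstream one held none of the motifs searched and was 59.3% G or C. Cacng3 was also called lower in both genotypes. Its promoter window is not shown, held none of the motifs searched and was 55.7% G or C. Among the 32851 promoters of the table, 35.7% held GGGCGG, 20.8% held TGACG and 8.46% held the NF-kB motif. Of 35 promoters found for 25 of the 34 channel genes, 13 held GGGCGG, 5 held TGACG, 5 held the NF-kB motif, 4 held TTCNNNGAA (the interferon-gamma activated site; 8.3% of all), 1 held TATAAA (the TATA box; 13.6% of all) and none held CACGTG (the E-box; 7.15% of all). A match is a run of letters and not evidence of binding.

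Cacnb1 (ENSMUSG00000020882, chromosome 11, 98001508 to 98023034), which also serves the skeletal muscle channel, moved the other way. It lay at 111, 117 and 128 CPM with LPS against 127, 138 and 145 CPM without in mice labelled Abca7. In controls it lay at 99.6, 110 and 122 CPM with LPS against 121, 130 and 135 CPM without. The ranges overlapped only narrowly in both genotypes. The log2 fold change was -0.22 ± 0.05 (adjusted p = 0.00188) in mice labelled Abca7 and -0.21 ± 0.05 (adjusted p = 0.00156) in controls by edgeR. In controls the call was lost when Ttr, a choroid plexus transcript, was a covariate (-0.10, adjusted p = 0.421).

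Cacnb3, the most abundant beta subunit here, lay at 160, 174 and 197 CPM with LPS against 173, 183 and 199 CPM without in mice labelled Abca7, with a log2 fold change of -0.06 ± 0.04 (adjusted p = 0.378). In controls it lay at 157, 165 and 184 CPM with LPS against 175, 183 and 185 CPM without, and was called lower by edgeR at -0.12 ± 0.04 (adjusted p = 0.0471). That call was close to the threshold and was lost in 15 of 20 alternatives, 10 of them the omission of a single library: any control library other than LPS replicate 6 and unstimulated replicate 3 (adjusted p up to 0.101). Cacnb4, the subunit mutated in the lethargic mouse, was not called in either comparison (-0.03 ± 0.06 in mice labelled Abca7 and -0.06 ± 0.06 in controls).

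**Figure D3:**
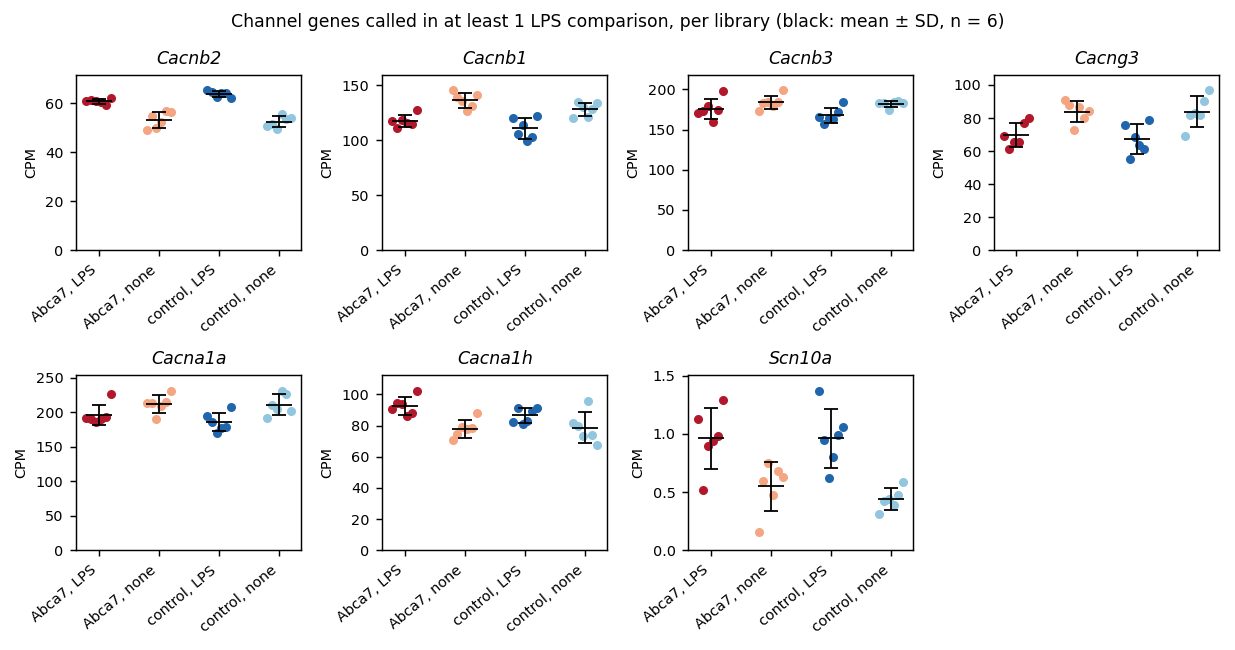
CPM in each library (points) of 7 channel genes called in at least 1 LPS comparison, with the mean ± SD of 6 libraries in black, in the order Abca7 with LPS, Abca7 without, control with LPS and control without. In Cacnb2 the LPS libraries sit at 59.1 to 65.2 CPM, above the unstimulated ones at 49.2 to 56.9 CPM; most other genes overlap between groups.

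Among the 10 pore-forming calcium channel genes, 1 was called per genotype, and they were different genes. Cacna1h, a pore of low-threshold T-type current, rose in mice labelled Abca7. It lay at 86.4, 92.2 and 102 CPM with LPS against 70.6, 78.1 and 88.0 CPM without in mice labelled Abca7, and at 80.9, 86.3 and 91.5 CPM with LPS against 67.5, 77.1 and 95.6 CPM without in controls. The ranges overlapped in both. The log2 fold change was 0.24 ± 0.06 in mice labelled Abca7 (adjusted p = 0.00847) and 0.13 ± 0.06 in controls (adjusted p = 0.152), and the difference of 0.11 ± 0.09 between them had an unadjusted p of 0.226 (edgeR). In controls it passed the threshold with age as a factor (0.18, adjusted p = 0.0341), with surrogate variables, and without unstimulated replicate 4 (0.20, adjusted p = 0.0131). The other T-type pores, Cacna1g and Cacna1i, were not called: 0.09 ± 0.07 and -0.03 ± 0.05 in mice labelled Abca7, and 0.10 ± 0.07 and -0.02 ± 0.05 in controls. With surrogate variables Cacna1g was called higher in both (0.15, adjusted p = 0.00532, in mice labelled Abca7 and 0.13, adjusted p = 0.0135, in controls), and Cacna1i turned sign and was called higher in controls (0.12, adjusted p = 0.00391).

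Cacna1a, the P/Q-type pore of presynaptic terminals and the gene of the tottering mouse, lay at 186, 191 and 226 CPM with LPS against 190, 213 and 230 CPM without in mice labelled Abca7 (-0.11 ± 0.05, adjusted p = 0.238). In controls it lay at 170, 182 and 208 CPM with LPS against 191, 207 and 231 CPM without and fell by 0.18 on the log2 scale (SE 0.05, adjusted p = 0.0189, edgeR). The groups overlapped in both genotypes. The control call was lost with the Ttr covariate, with striatum and thalamus marker levels as covariates (-0.07), with surrogate variables (-0.04), and without LPS replicate 3, unstimulated replicate 4 or unstimulated replicate 5 (-0.16 each, the highest adjusted p among omissions 0.0600). Of the other release and dendritic channels, the N-type pore Cacna1b, the R-type pore Cacna1e and the L-type pores Cacna1c and Cacna1d had changes from -0.11 to -0.01 in mice labelled Abca7 and from -0.12 to -0.02 in controls, with none called. The direction of Cacna1c depended on the fit. With surrogate variables it turned sign and was called higher in mice labelled Abca7 (0.15, adjusted p = 0.00808) and in controls (0.15, adjusted p = 0.00761, edgeR). That fit used 5 surrogate variables, the number given by a permutation estimate, while an asymptotic estimate gave 0. The L-type pores Cacna1s of skeletal muscle and Cacna1f of the retina were at 0.168 and 0.131 RPKM in unstimulated controls and were not called.

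Of 8 gamma subunits, Cacng3 was the only one called. It encodes a TARP of forebrain excitatory synapses. In mice labelled Abca7 it lay at 61.0, 67.4 and 80.2 CPM with LPS against 73.0, 85.3 and 91.0 CPM without, and in controls at 55.4, 66.1 and 78.9 CPM with LPS against 69.2, 82.5 and 96.7 CPM without. The ranges overlapped in both genotypes, with medians lower under LPS. The log2 fold change was -0.26 ± 0.08 (adjusted p = 0.0338) in mice labelled Abca7 and -0.32 ± 0.08 (adjusted p = 0.00630) in controls, by edgeR. Leaving out a single library ended the call in mice labelled Abca7 for LPS replicates 1, 2, 3 and 4 and unstimulated replicates 1, 2, 4 and 6 (adjusted p up to 0.0957), and for no control library. With striatum and thalamus markers as covariates the changes were -0.17 in mice labelled Abca7 and -0.19 in controls (adjusted p = 0.0776, edgeR), and neither passed. These covariates were not independent of LPS, as described below. With the Ttr covariate the control change was -0.09 (adjusted p = 0.741), while that in mice labelled Abca7 passed at -0.29. Beside it, 1 of 8 excitatory neuron markers, Neurod6, fell in mice labelled Abca7 and 2, Neurod6 among them, fell in controls; the summed level was 3913 to 5054 CPM with LPS against 4252 to 4985 CPM without in mice labelled Abca7, and 3739 to 4680 CPM with LPS against 3912 to 4753 CPM without in controls. No marker of that list was at 0, and its part in the Cacng3 result was not tested.

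The other TARPs were not called. Cacng2, or stargazin, lay at -0.07 ± 0.04 in mice labelled Abca7 and -0.10 ± 0.04 in controls (adjusted p = 0.266 and 0.0855), Cacng7 at 0.04 ± 0.05 and 0.00 ± 0.05, and Cacng4 at -0.08 ± 0.05 and 0.05 ± 0.05. In mice labelled Abca7, Cacng4 was called lower with age as a factor (-0.17, adjusted p = 0.0385), with striatum and thalamus marker levels (-0.14, adjusted p = 0.0251) and with surrogate variables (-0.17, adjusted p = 0.0108). In controls, Cacng2 was called lower with age as a factor (-0.11, adjusted p = 0.0280) and without unstimulated replicate 1 (-0.12, adjusted p = 0.0462). Cacng8 was -0.03 ± 0.15 in mice labelled Abca7 and -0.20 ± 0.15 in controls, where 1 library of each group stood apart: LPS replicate 4 at 69.9 CPM, against 40.3 to 45.3 CPM in the other LPS controls, and unstimulated replicate 4 at 98.2 CPM, against 41.7 to 47.95 CPM in the others. The neighbouring genes on chromosome 7, Cacng7 and Cacng6, did not have their highest level in these libraries. Of the partner list of 8 AMPA receptor genes and further auxiliary subunits, none was called with LPS in either genotype.

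Cacng5, a type II TARP, lay at 11.8, 17.8 and 21.0 CPM with LPS against 9.76, 12.4 and 15.3 CPM without in mice labelled Abca7, and at 14.4, 25.9 and 29.1 CPM with LPS against 11.1, 13.5 and 32.1 CPM without in controls. Its changes of 0.50 ± 0.22 and 0.47 ± 0.21 did not pass (adjusted p = 0.160 and 0.141, edgeR). The control value rested on unstimulated replicate 1, the library at 32.1 CPM: without it the change was 0.76 (adjusted p = 0.00245). In mice labelled Abca7 it passed with the Ttr covariate (0.58, adjusted p = 0.00987) and in the fit of the 2 groups alone (0.49, adjusted p = 0.0238). That library also held the most thalamus marker RNA of its group, as described below. Cacng6 and Cacng1, known as muscle gamma subunits, had 15 to 56 and 2 to 27 reads per library and were not called; Cacng6 was called lower in controls with the Ttr covariate (-0.94, adjusted p = 0.0353) and without LPS replicate 6 (-0.69, adjusted p = 0.0127).

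Among the pore-forming sodium channel genes, Scn10a (ENSMUSG00000034533, chromosome 9, 119608456 to 119719032), a channel of nociceptive neurons, rose in both genotypes at a very low level. It lay at 0.520, 0.963 and 1.29 CPM (35 to 88 reads) with LPS against 0.161, 0.611 and 0.754 CPM (7 to 42 reads) without in mice labelled Abca7. In controls it lay at 0.619, 0.966 and 1.37 CPM (41 to 74 reads) with LPS against 0.312, 0.433 and 0.590 CPM (18 to 37 reads) without. The control groups did not overlap, a separation upward that 5.38% of all genes showed. The groups of mice labelled Abca7 overlapped. The log2 fold change was 0.79 ± 0.25 in mice labelled Abca7 (adjusted p = 0.0351) and 1.12 ± 0.25 in controls (adjusted p = 0.00178, edgeR). In controls the call held in all 20 alternatives, while in mice labelled Abca7 it held in 12 of 20 and was lost without LPS replicates 1, 5 or 6 or unstimulated replicates 1, 2 or 4 (adjusted p up to 0.0868), in the fit of the 2 groups alone, and with surrogate variables.

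Scn11a, the other sensory neuron channel on chromosome 9, had 5 to 32 reads and was not called (0.17 ± 0.38 in mice labelled Abca7 and 0.01 ± 0.37 in controls).

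The abundant neuronal sodium channel pores did not pass the test. Scn8a was -0.06 ± 0.05 in mice labelled Abca7 and -0.10 ± 0.05 in controls (adjusted p = 0.548 and 0.200). Scn1a, the main sodium channel of fast-spiking interneurons, was 0.06 ± 0.04 in both (adjusted p = 0.411 and 0.386), and the companion Scn2a1 was -0.01 ± 0.06 and -0.04 ± 0.06. Scn3a, which is best known from the embryonic and newborn brain, lay at 50.1, 55.2 and 60.9 CPM with LPS against 55.0, 57.1 and 67.0 CPM without in mice labelled Abca7, and at 53.0, 56.4 and 57.8 CPM with LPS against 59.5, 60.6 and 61.4 CPM without in controls. The control groups did not overlap, a separation downward that 3.69% of all genes showed, but the change of -0.11 ± 0.04 did not pass (adjusted p = 0.0937). It passed in 3 of 20 alternatives: with age as a factor (-0.12, adjusted p = 0.0163), with surrogate variables (-0.10, adjusted p = 0.0159) and in the fit of the 2 groups alone (-0.11, adjusted p = 0.0179). Of the 50-base sequences of Scn3a, 6.49% recur in a different gene, chiefly Scn2a, and of those of Scn1a 4.03%. Scn9a, which sets pain thresholds in sensory neurons, was 0.32 ± 0.15 in mice labelled Abca7 and 0.31 ± 0.14 in controls (adjusted p = 0.182 and 0.152), and the control value was 0.41 (adjusted p = 0.0418) without unstimulated replicate 1. Scn7a, a sodium sensor not gated by voltage, was 0.08 ± 0.10 and 0.06 ± 0.10.

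None of the 4 sodium channel beta subunits was called. Scn2b was 0.05 ± 0.03 in mice labelled Abca7 and 0.04 ± 0.03 in controls, and Scn3b 0.07 ± 0.04 and 0.03 ± 0.04. Scn4b, abundant in striatal projection neurons, was 0.04 ± 0.07 in mice labelled Abca7 and 0.12 ± 0.07 in controls (adjusted p = 0.760 and 0.225). With striatum and thalamus marker levels as covariates Scn4b was called in both, at 0.16 (adjusted p = 0.0220) and 0.23 (adjusted p = 0.000856, edgeR). Those marker levels were not independent of LPS, as described below. The 8 striatum markers summed to 824 to 968 CPM with LPS and 865 to 1108 CPM without in mice labelled Abca7, and to 803 to 950 CPM with LPS and 812 to 1022 CPM without in controls.

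The genotype label moved no channel gene past the threshold. Under LPS, 0 of 34 were called (0% of all genes; 1 channel gene and 1748 of all genes had an unadjusted p under 0.05), and without LPS 0 of 34 were called (0.032% of all genes; 2 channel genes and 1426 of all genes had an unadjusted p under 0.05). DESeq2 called none of the 34 in either comparison. The interaction of LPS and genotype label gave 0 of 34 (0% of all genes; 1 channel gene and 745 of all genes had an unadjusted p under 0.05), by edgeR and by DESeq2. For the 26 genes with at least 1 RPKM the lowest log2 difference was that of Cacng5, -0.41 under LPS (95% interval reaching -0.85) and -0.44 without LPS (reaching -0.89). Under LPS the highest was that of Cacna1h, 0.10.

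Scn1a had the smallest p-values of the genotype comparisons. It lay at 185, 187 and 209 CPM in mice labelled Abca7 and 197, 214 and 229 CPM in controls under LPS, and at 172, 187 and 192 CPM in mice labelled Abca7 and 196, 205 and 222 CPM in controls without LPS. Without LPS the groups did not overlap, as in 0.119% of all genes in that direction; under LPS they did. The log2 difference was -0.16 ± 0.04 in both (adjusted p = 0.290 under LPS and 0.329 without LPS, edgeR), and without LPS it passed in 1 of 20 alternatives, the fit with surrogate variables (-0.13, adjusted p = 0.0446). Cacnb2 was the other gene whose genotype groups did not overlap: under LPS its libraries lay at 59.1 to 62.1 CPM in mice labelled Abca7 and 62.2 to 65.2 CPM in controls, a separation that 0.224% of all genes showed in that direction. The difference of -0.07 ± 0.03 did not pass (adjusted p = 0.645), and the interaction of -0.09 ± 0.05 had an unadjusted p of 0.0819. Cacng6 had the smallest interaction p, at 0.88 ± 0.29 (unadjusted p = 0.00581, adjusted p = 1), on 15 to 56 reads per library.

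**Figure D4:**
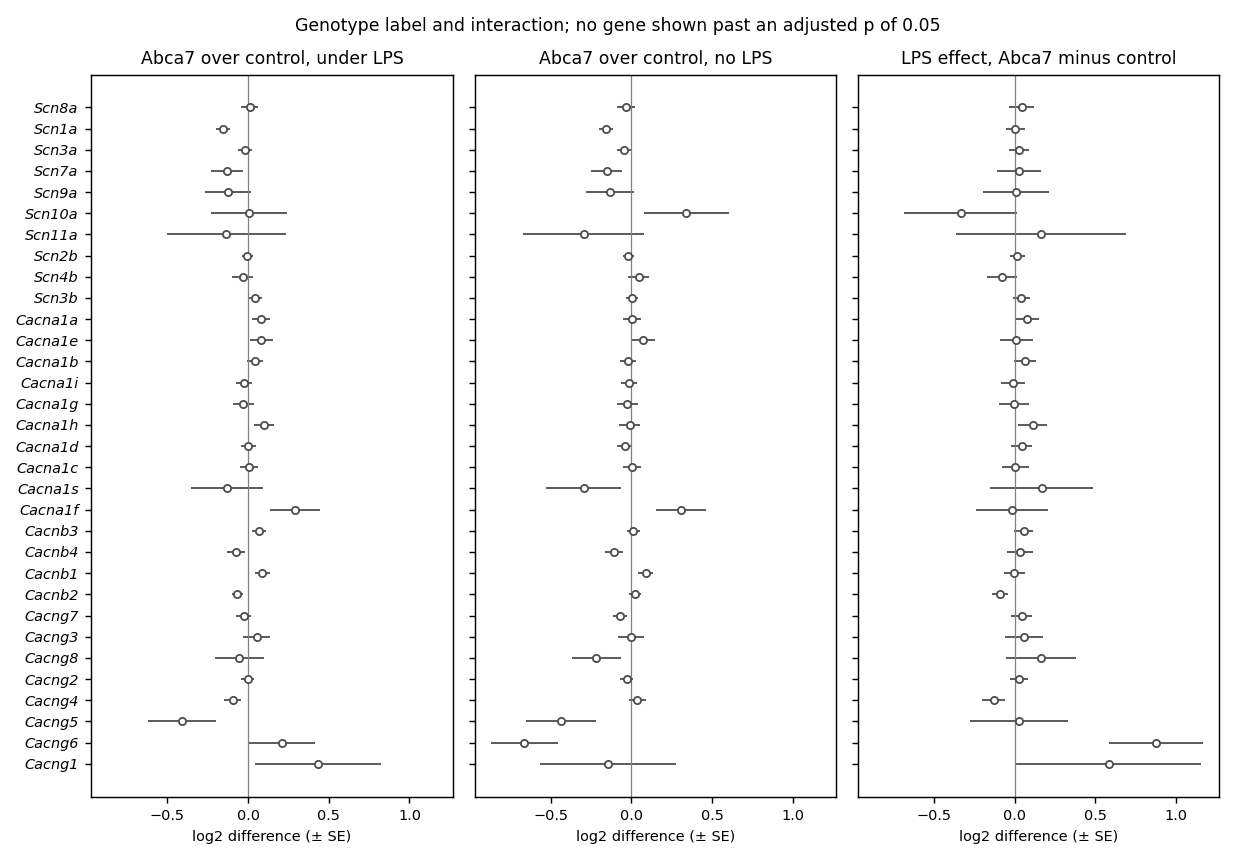
Log2 differences ± SE of 32 channel genes for the genotype label under LPS, the genotype label without LPS, and the interaction (LPS effect in mice labelled Abca7 minus that in controls). No gene plotted has an adjusted p under 0.05, and Scn1a lies at -0.16 in both genotype panels.

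Genes of proteins that work with these channels also showed scattered calls. Of all genes, 11.8% were called with LPS in mice labelled Abca7 and 17.3% in controls. The 4 alpha2delta genes encode subunits that raise the surface level of calcium channels. Of these, Cacna2d4 rose in mice labelled Abca7 (0.42 ± 0.13, adjusted p = 0.0368, edgeR). None was called in controls, where Cacna2d4 had 0.21 ± 0.13 (adjusted p = 0.307, edgeR). Of 12 calcium channel partners, 1 rose and 1 fell in mice labelled Abca7, and 2 rose and 3 fell in controls. Gem, a small GTPase that binds beta subunits and reduces calcium current, rose in both (1.54 ± 0.26, adjusted p = 8.95e-05, in mice labelled Abca7, and 1.53 ± 0.25, adjusted p = 4.66e-05, in controls). Rrad, of the same GTPase family, rose in controls (0.64 ± 0.22, adjusted p = 0.0416; in mice labelled Abca7 0.31 ± 0.22, adjusted p = 0.425). Stac3, an adaptor of the skeletal muscle L-type channel, fell in both (-0.68 ± 0.14, adjusted p = 0.00138, and -0.46 ± 0.15, adjusted p = 0.0280), and in controls the active zone protein Rimbp2 fell as well (-0.15 ± 0.05, adjusted p = 0.0322).

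Of 13 sodium channel partners, 1 rose in mice labelled Abca7 (11.8% of all genes were called), and 1 rose and 1 fell in controls (17.3% of all genes). Nedd4l, a ubiquitin ligase that removes sodium channels from the membrane, rose in both (0.16 ± 0.05, adjusted p = 0.0273, in mice labelled Abca7, and 0.15 ± 0.05, adjusted p = 0.0323, in controls). Sptbn4, the spectrin that holds channels at the axon initial segment, fell in controls (-0.17 ± 0.06, adjusted p = 0.0473; in mice labelled Abca7 -0.09 ± 0.06, adjusted p = 0.372). Of the 4 genes of the sodium leak channel complex, Unc79 fell in both (-0.16 ± 0.05, adjusted p = 0.0269, and -0.20 ± 0.05, adjusted p = 0.00277). None of these lists had a call in a genotype or interaction test.

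Some markers of tissue next to the cortex were also called with LPS. None of 8 hippocampus markers was called in either genotype. Among 8 striatum markers, Drd1a fell in mice labelled Abca7, and Drd1a and Adora2a fell in controls. Over all genes tested, 5.18% and 7.92% fell. Of all genes, 6.65% rose in mice labelled Abca7 and 9.39% in controls. Of 8 thalamus markers, Rgs16 rose in both genotypes and Tcf7l2 in controls. The summed level of the thalamus markers ran from 96.6 to 252 CPM with LPS (median 211) and from 79.7 to 195 CPM without (median 95.5) in mice labelled Abca7. In controls it ran from 141 to 302 CPM with LPS (median 236) and from 85.8 to 243 CPM without (median 112). No thalamus marker was at 0 on average in any group. The unstimulated control replicate 1, at 243 CPM against 85.8 to 139 CPM in the rest of its group, also had the highest Cacng5 (32.1 CPM) and Scn9a (10.2 CPM) and the lowest Scn8a (388 CPM) of that group. Of 7 choroid plexus markers, none was called with LPS in mice labelled Abca7 and 5 rose in controls, with sums of 36.9 to 432 CPM with LPS and 61.6 to 502 CPM without in mice labelled Abca7, and 191 to 548 CPM with LPS and 15.8 to 302 CPM without in controls. In unstimulated controls only replicate 1 lay high, at 302 CPM, and the rest lay at 15.8 to 33.5 CPM. Ttr is among these markers, so in controls the Ttr covariate can hardly be separated from LPS. The thalamus marker sums had higher medians under LPS in both genotypes, so the striatum and thalamus covariates are not independent of LPS either. This limits every value from that fit, those of Cacna1a, Cacng3 and Scn4b among them. With striatum and thalamus marker levels as covariates, 6 channel genes were called in mice labelled Abca7 and 4 in controls. With the Ttr level as a covariate these counts were 6 and 3. The shares of all genes in these fits are not given here. Cacnb2 and Scn10a were called under both covariate fits in both genotypes.

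**Figure D5:**
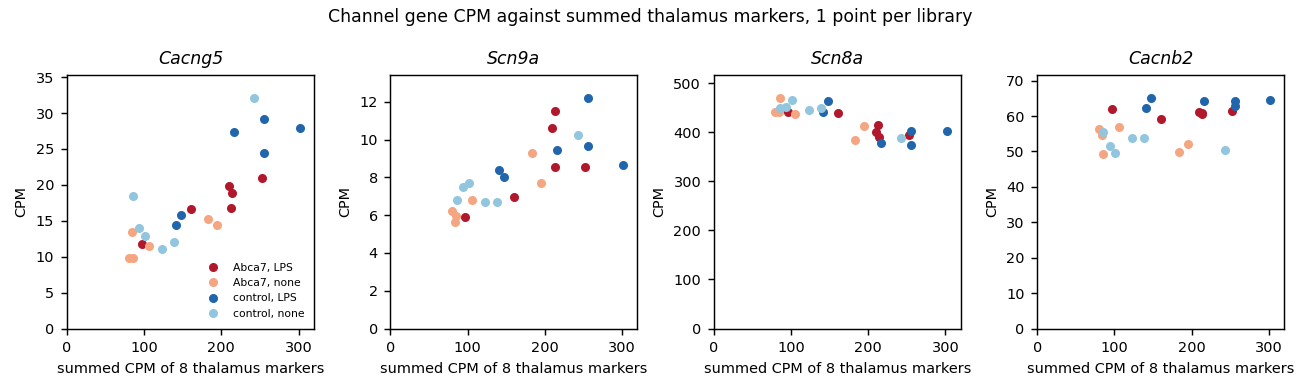
CPM of Cacng5, Scn9a, Scn8a and Cacnb2 in each library against the summed CPM of 8 thalamus markers in the same library, coloured by group. Unstimulated control replicate 1, at 243 CPM of thalamus markers, has the highest Cacng5 and Scn9a and the lowest Scn8a of its group. In Cacnb2 the libraries given LPS lie above the unstimulated ones. The marker sum had a higher median under LPS in both genotypes, and no relation between it and these genes was tested.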

How the data were processed

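The table deposited by the authors gives unnormalized whole-number read counts of genes in 24 cortical libraries. The submitters' processing notes name STAR 2.5.2b and mm10, and per the series text MAP-RSeq 2.1.1 made the counts. No source used here names the annotation release, the strand setting or how reads with several matches were treated. The gene lengths used for RPKM are another column of the deposited table.

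From the counts, genes were kept with filterByExpr by group, library sizes were scaled with TMM, and the 4 groups were fitted together in edgeR 4.0.16 (R 4.3.3), each with its own coefficient. Quasi-likelihood F tests covered 5 contrasts, and p-values were adjusted by Benjamini-Hochberg over 21891 genes and a threshold of 0.05. A standard error is the size of the log2 fold change over the square root of its F value. The procedure was tested on simulated data. Alternatives were RLE scaling, no filter, DESeq2 1.42.0, age as a factor, the libraries of the 2 groups alone, and omission of each library. Covariates in further alternatives were the Ttr level, striatum and thalamus marker levels, or sva 3.50.0 surrogate variables. The surrogate variables numbered 5, as a permutation estimate gave, while an asymptotic estimate gave 0.

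Libraries were grouped by their genotype and stimulus labels. Each title carries a different number, taken as the animal, but nothing states that libraries are separate animals, so p-values measure the spread between these libraries. Replicate numbers follow accession order and are names alone. Every channel gene is counted, those called in any contrast are given per group apart from some genes that are not reported here by name, and of the companion lists at most 4 called genes per list and of the marker lists at most 2 are named. The members and lists were chosen with earlier results of these data known. Counts are of reads without molecular identifiers. The standard errors of log2 values include the spread between libraries of a group. Exon overlaps and shared 50-base sequences come from GENCODE M21, and promoters from RefSeq. Figures were drawn with matplotlib 3.10.9.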

Additional observations from a re-analysis of the deposited data

Results flagged for a closer look

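Of 136 groups of 6 libraries (34 genes in 4 groups), 9 held a library far from its nearest neighbour relative to the range of the group; chance alone gives such a library in about 1 in 20 groups. In unstimulated controls, replicate 1 was high for Cacng5 (32.1 CPM, next 18.4 CPM) and Scn9a (10.2 CPM, next 7.71 CPM) and low for Scn8a (388 CPM, next 445 CPM). This library had the highest thalamus marker sum of its group, and the part of that in these values was not tested. Cacng8 was high in control LPS replicate 4 (69.9 CPM, next 45.3 CPM) and unstimulated control replicate 4 (98.2 CPM, next 47.95 CPM). The remaining flags were Cacna1a in Abca7 LPS replicate 6 (226 CPM, next 193 CPM), Cacna1c in unstimulated Abca7 replicate 3 (113 CPM, next 141 CPM), Cacng6 in control LPS replicate 6 (0.892 CPM, next 0.571 CPM) and Cacnb3 in unstimulated control replicate 3 (175 CPM, next 183 CPM).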

How the results depend on the processing

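The count of channel genes called with LPS in mice labelled Abca7 was 5, ran from 5 to 7 under the other settings and from 3 to 5 when a library was left out. It was 3 without LPS replicate 1 or unstimulated replicates 1, 2 or 4. In controls the count was 7, became 3 with the Ttr covariate (2 of the 7 among them) and 4 with striatum and thalamus marker levels (3 of the 7 among them), and otherwise ran from 6 to 9, and from 5 to 9 when a library was left out. Counts over all genes in the same settings are not given here, so these changes are not shown to be particular to the channel genes. Without LPS, the genotype count of 0 became 1 with the Ttr covariate (Cacng5, -1.18, adjusted p = 0.0393, edgeR) and 1 with surrogate variables (Scn1a). Among unstimulated controls, replicate 1 alone had a high choroid plexus marker sum (302 CPM, the rest 15.8 to 33.5 CPM). The same library had the highest Cacng5 of its group. Under LPS and for the interaction the count was 0 in every setting run. Over the alternatives, no gene changed sign in a comparison that called it as reported, while 12 of the 34 genes did so at least once in mice labelled Abca7 and 19 in controls. The turned values passed the threshold for Cacna1c in both genotypes and Cacna1i in controls, each with surrogate variables. Scn9a (-0.10) and Cacng5 (-0.27) turned in controls with the Ttr covariate without passing; the cause was not tested. RLE scaling and DESeq2 shifted the median of all genes by less than 0.01. The fit of 2 groups alone cannot give an interaction. No paired analysis was possible because the labels give no replicate numbers. Depth limits Scn10a, Scn11a, Cacng1 and Cacng6, with at most 88 reads in a library.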
